A study of Arabidopsis thaliana with 18 samples.

Results

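The flowers of a lej1 mutant of Arabidopsis thaliana were set against those of wild-type plants on Affymetrix ATH1 arrays, each hybridised with biotinylated cRNA from 5 microg of total RNA. Every array titled for the mutant or the wild type was taken, which gave 12 of the 18 arrays of the series in 4 groups of 3: lej1 mutant buds, wild-type buds, lej1 mutant open flowers and wild-type open flowers. The mutant is written KO and the wild type WT below, after the sample titles. Buds were unopened and of floral stages 1 to 12, open flowers were of stages 13 to 14, and all plants were 5 weeks old and grown under LD conditions. The labels give neither the lej1 allele nor the number of lines behind the KO samples, so the group stands for the mutant as submitted. Titles and source names gave the groups, since the description field names wild-type buds for all 18 samples and the growth protocols name wild-type plants throughout. The other 6 arrays, from 1 line that overexpresses AtLEJ1 from the 35S promoter (OE), enter only as values set beside those of KO. The question was which transcripts differ between KO and WT flowers whatever the stage, and each difference is the effect of genotype with floral stage and replicate number held as covariates.

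LEJ1, also named CBSX2, is a chloroplast protein built of CBS domains, a fold that binds adenosine-containing ligands. It and its close relative CBSX1 are known to bind thioredoxins, the small redox proteins that switch chloroplast enzymes with the light, and to raise their activity. In Arabidopsis these proteins have been tied to hydrogen peroxide levels, to jasmonate, and to the lignified thickening of the endothecium, the anther wall layer that opens the anther. In the annotation used, 0 probe sets are named for LEJ1 (AT4G34120) and 0 for CBSX1 (AT4G36910, listed as LEJ2). The targeted gene could thus not be picked out by name and could not serve as a check of the labels. The 8730 probe sets without a gene in that annotation were tested too, and whether any of them measures LEJ1 cannot be told here.

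Each array gave 1 intensity for each of 22810 probe sets, and the 22746 that are not controls were all tested, with no filter on dim ones. Median intensity per array ran from 207 to 232. The first principal component (74.4% of the variance) separated buds from open flowers, and the second (9.94%) separated the 4 arrays of replicate 1 from the other 8. On the log2(intensity + 16) scale the array medians were 7.88 to 7.96 in KO buds and 7.83 to 7.87 in WT buds, and 7.87 to 7.91 in KO open flowers and 7.80 to 7.86 in WT open flowers. The KO medians were thus above the WT medians at each stage, by 0.0744 on average (exact permutation test within stage, two-sided, p = 0.005, the smallest that its 400 arrangements allow, 0.01 after Benjamini-Hochberg adjustment over 4 array measures). That test of the medians was not planned beforehand, and it does not keep the same-numbered arrays together. With signs flipped over the 6 same-numbered pairs, a test chosen after seeing the data, KO was higher in 6 of 6 (exact p = 0.0312, the smallest that 64 flips allow) and the adjusted p was 0.0625. RNA integrity was read from the ratio of 3' to 5' probe sets of the control genes actin, GAPDH and ubiquitin, which the array carries in 2 versions. In the first version the mean log2 ratio ran between 1.66 and 1.88 in KO buds and between 1.71 and 1.97 in WT buds, and between 1.73 and 2.04 in KO open flowers and between 1.66 and 2.01 in WT open flowers (exact permutation p = 0.695, adjusted 0.695). In the second version, chosen after its difference was known, it was 0.240 ± 0.0357 in KO buds and 0.377 ± 0.0305 in WT buds, and 0.261 ± 0.0235 in KO open flowers and 0.438 ± 0.0119 in WT open flowers (SD, n = 3 each). Every KO array lay below every WT array of its stage there (exact permutation p = 0.005, the smallest possible, adjusted 0.01), and KO was the lower one in 6 of 6 pairs (exact sign-flip p = 0.0312, adjusted 0.0625). The second ratio with stage and replicate number accounts for 97.4% of the variance of the genotype term, so genotype and this control ratio cannot be told apart in a fit that holds both.

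**Figure D1:**
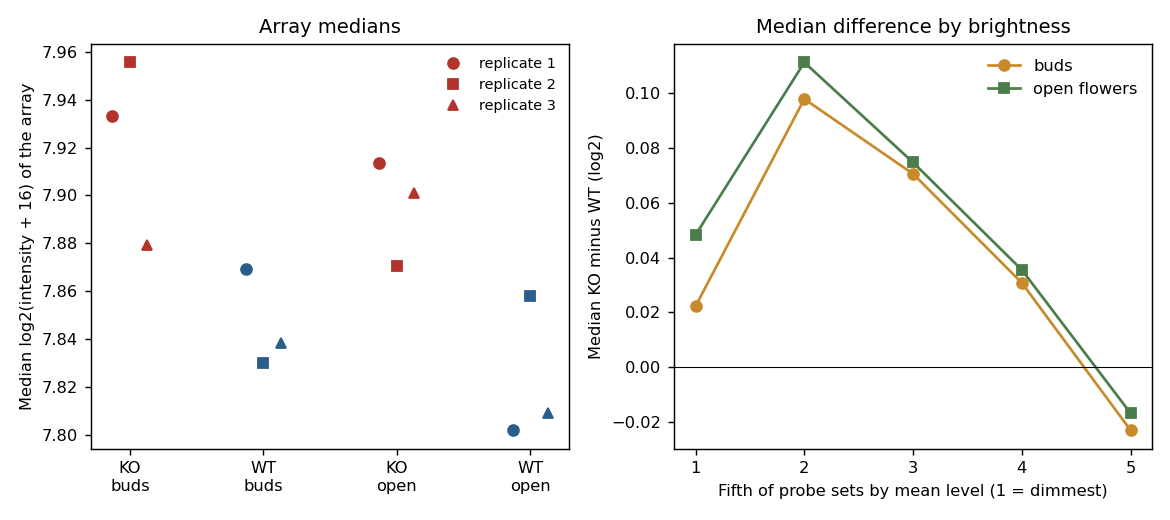
Left, the median log2(intensity + 16) of each array (vertical axis) by group, with KO in red and WT in blue and 1 symbol per replicate number; the KO medians lie above the WT medians at each stage. Right, the median KO minus WT difference (log2) of the probe sets in 5 equal groups by mean level, for buds and open flowers; it is highest in the group next to the dimmest and below 0 in the brightest one.

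With the stages pooled, 1 of 22746 probe sets differed between KO and WT at an adjusted p under 0.05, and it was lower in KO (0.0044% of those tested). No probe set was called higher in KO (0%). The probe set is 253282_at, for which the annotation used gives no gene. Its intensity was 207, 230 and 220 in KO buds, against 2080, 1846 and 2153 in WT buds. It was 233, 502 and 224 in KO open flowers, against 2655, 3180 and 2985 in WT open flowers. No KO array came near a WT array at either stage, and the highest KO value, that of replicate 2 in open flowers, was the one that stood apart from its group. The group means were 219 ± 11.2 in KO buds and 2027 ± 160 in WT buds, and 320 ± 158 in KO open flowers and 2940 ± 265 in WT open flowers (SD, n = 3 each). KO buds thus read 10.8% of the WT bud level and KO open flowers 10.9% of the WT open-flower level. The pooled difference, KO minus WT, was -3.17 ± 0.14 on the log2 scale (SE; limma, adjusted p = 6.55e-07, 95% interval -3.48 to -2.86). All 6 pairs of same-numbered arrays showed it.

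Probe set 253282_at fell at each stage. The log2 difference was -3.12 in buds (adjusted p = 0.000225) and -3.23 in open flowers (adjusted p = 7.7e-05), and the open-flower value minus the bud value was -0.11 ± 0.30 (SE; unadjusted p = 0.71, 95% interval -0.76 to 0.54). OE arrays read 2213, 2415 and 2413 in buds and 2303, 2981 and 2339 in open flowers, all far above the KO arrays. OE minus WT was -0.0017 (limma, adjusted p = 0.999), and KO minus OE was -3.17 ± 0.14 (adjusted p = 5.02e-07). OE and KO were each set against the same WT arrays, so these values stand side by side only. As the probe set is unnamed here, no transcript and no function can be attached to it from the annotation used. Whether it measures LEJ1 itself cannot be told here either.

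**Figure D2:**
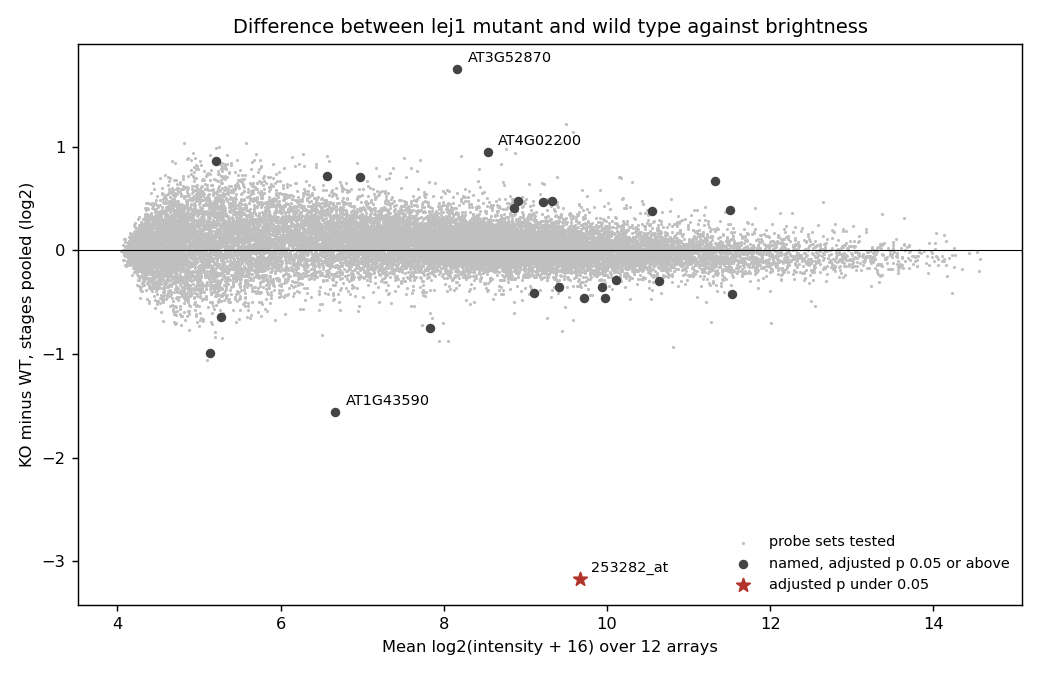
KO minus WT with the stages pooled (log2, vertical axis) against the mean log2(intensity + 16) over the 12 arrays (horizontal axis), 1 grey point per probe set, with the named probe sets in dark grey and the 1 probe set at an adjusted p under 0.05 as a star. That star, 253282_at at -3.17, lies apart from all other points, and AT3G52870 and AT1G43590 lie next farthest from 0.

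Taken stage by stage, from the fit with a mean for each of the 4 groups, limma called 1 probe set in buds (0.0044%), with 0% called higher and 0.0044% lower there. It called 2 in open flowers (0.00879%), of which 1 was higher in KO (0.0044%) and 1 lower (0.0044%). The call in buds and the lower one in open flowers were 253282_at. The one called higher was AT3G52870, the gene of an IQ-motif protein. The IQ motif is a short helix that binds calmodulin, the calcium sensor. The intensity of AT3G52870 was 885, 714 and 788 in KO open flowers, against 162, 127 and 91.5 in WT open flowers. In buds it was 333, 325 and 320 in KO, against 187, 154 and 139 in WT. The KO arrays lay above the WT arrays at both stages, with a wider gap in open flowers.

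In open flowers AT3G52870 averaged 796 ± 85.8 in KO and 127 ± 35.4 in WT (SD, n = 3 each), 6.26-fold higher in KO (log2 difference 2.53 ± 0.15, SE; limma, adjusted p = 7.26e-05). In buds it averaged 326 ± 6.51 in KO and 160 ± 24.7 in WT, a log2 difference of 0.96 ± 0.15 that did not pass (adjusted p = 0.575). Pooled over the stages the difference was 1.75 ± 0.25, just outside the threshold (adjusted p = 0.0886). The stage dependence itself, the open-flower difference minus the bud difference, was 1.57 ± 0.22 (unadjusted p = 1.5e-05), and it was not called over all probe sets (adjusted p = 0.339). OE minus WT was 0.16 (adjusted p = 0.885), and KO minus OE was 1.59 ± 0.24 (adjusted p = 0.0454). No other genotype by stage difference was called either: limma gave 0 of 22746 (0%), and 691 at an unadjusted p under 0.05 (3.04%). With the second control ratio as a covariate limma called 0 probe sets pooled, in buds or in open flowers, the median standard error was 0.830, and the pooled differences were -2.76 ± 0.91 for 253282_at and -1.46 for AT3G52870.

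**Figure D3:**
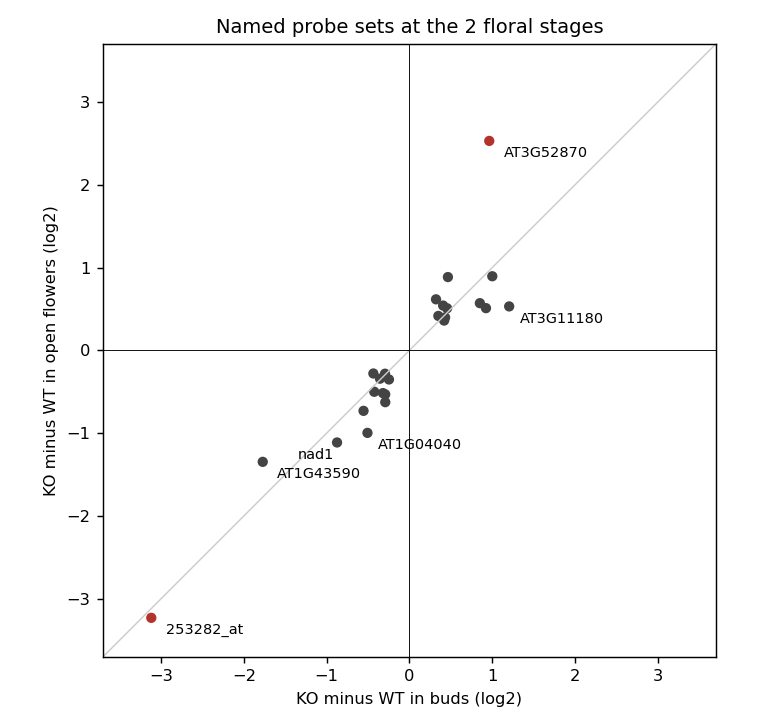
KO minus WT in buds (log2, horizontal axis) against KO minus WT in open flowers (log2, vertical axis) for the 25 named probe sets, with those at an adjusted p under 0.05 in open flowers in red and the line of equal differences in grey. Probe set 253282_at lies on the line at about -3, and AT3G52870 lies above it at 0.96 and 2.53.

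Only 1 further probe set had a pooled adjusted p under 0.1. AT1G43590 read 61.1, 32.8 and 29.5 in KO buds, against 181, 139 and 207 in WT buds, and 28.9, 67.9 and 51.3 in KO open flowers, against 140, 156 and 139 in WT open flowers. All KO arrays lay below all WT arrays, and each KO value was at or below the 40th percentile of its array. The pooled difference was -1.56 ± 0.21 (SE; adjusted p = 0.0774). It was called in 8 of 25 alternative settings, 1 of which left out the KO open-flower array of replicate 2. OE minus WT was -0.89 (adjusted p = 0.124), with OE arrays at 104, 53.0 and 52.3 in buds, overlapping with KO, and at 81.8, 86.5 and 106 in open flowers, between KO and WT.

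AT4G02200, of the Di19 family of drought-responsive zinc-finger proteins, came next among single-gene probe sets. It read 472, 696 and 628 in KO buds, against 251, 232 and 406 in WT buds, and 400, 450 and 413 in KO open flowers, against 261, 173 and 232 in WT open flowers. The groups did not overlap at either stage. The pooled difference was 0.95 ± 0.14 (SE; adjusted p = 0.109), with 1.00 in buds and 0.90 in open flowers. In OE it was lower than in WT by value, with OE minus WT at -0.53 (adjusted p = 0.491), and KO minus OE was 1.47 ± 0.21 (adjusted p = 0.0388).

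**Figure D4:**
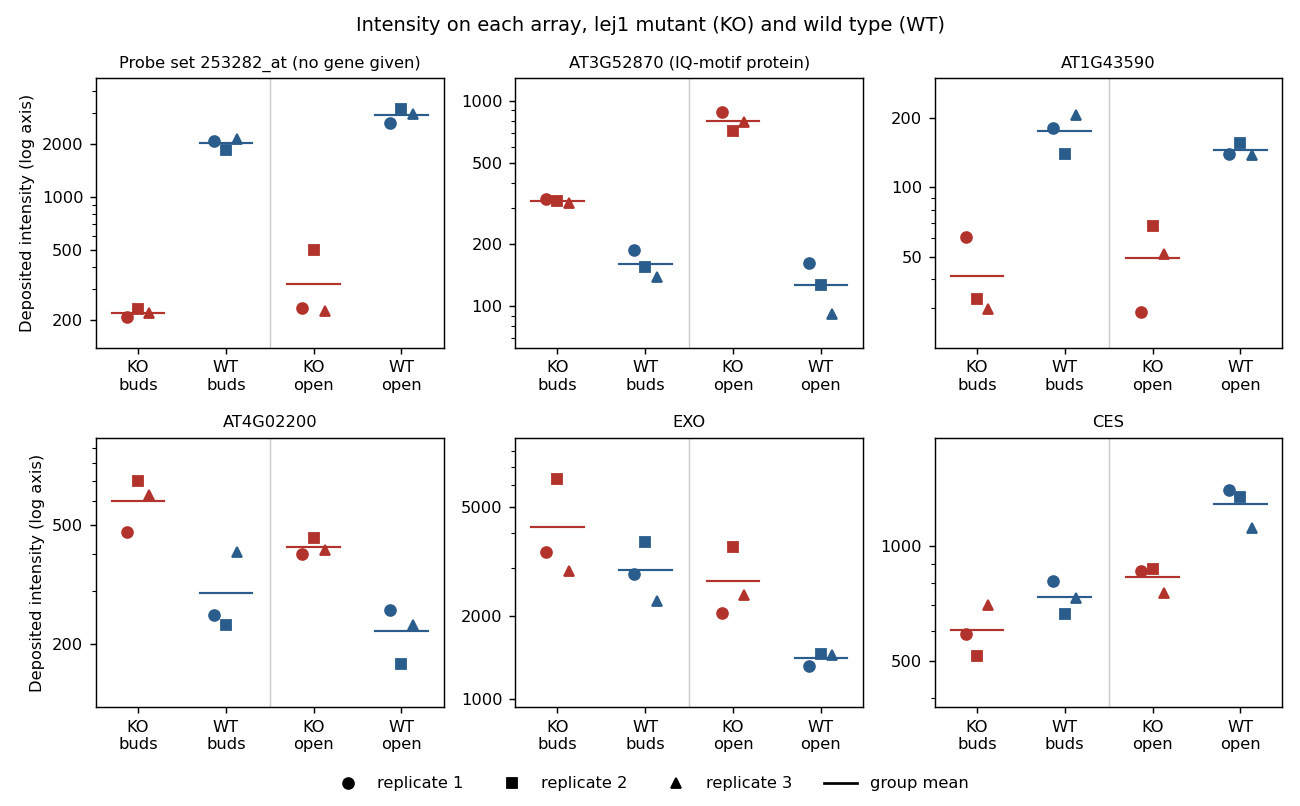
Deposited intensity (log axis) on each array for 6 probe sets, with KO left of WT within buds and within open flowers, 1 symbol per replicate number and a line at the mean of each group of 3. For 253282_at, AT3G52870, AT1G43590 and AT4G02200 the KO and WT arrays do not overlap at either stage, and for EXO and CES they overlap in buds.

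The differences across the array were small. The median standard error of the pooled difference was 0.133, and the median half-width of its 95% interval 0.290. For 95.8% of the probe sets the interval lay within a log2 difference of 1 either way, which is a 2-fold change, and for 61.7% within 0.5. Among the 14828 probe sets above the 40th percentile of their array on at least 3 arrays, these shares were 98.9% and 82.7%. A pooled difference of 1 or more was found for 9 probe sets, 6 higher and 3 lower in KO. Beside the 3 described above these are 2 unnamed here (247925_at and 266821_at), 2 plastid genes described below, and AT3G51570 (1.03) and AT2G41930 (-1.05), both among the dimmest on the array. These 6 had adjusted p of 0.342 to 0.477 and were picked out for their size.

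With the stages pooled, 2185 probe sets had an unadjusted p under 0.05 (9.61%), 1497 higher (6.58%) and 688 lower (3.02%) in KO, and without the replicate block 1352 did, 1002 higher and 350 lower. For buds the count was 1257 (5.53%), made up of 860 higher (3.78%) and 397 lower (1.75%). For open flowers it was 1343 (5.9%), made up of 875 higher (3.85%) and 468 lower (2.06%). The split between higher and lower depends on the scaling of the arrays: with arrays centred on their medians it was 658 higher and 1796 lower, and with quantile normalization 929 higher and 938 lower. The median pooled difference over all probe sets was 0.0404 as deposited, -0.034 after centring and -0.0018 after quantile normalization. It also varied with brightness, at 0.04, 0.11, 0.08, 0.03 and -0.02 in 5 equal groups of probe sets ordered dim to bright. At an unadjusted p under 0.05 the brightest group held 207 higher and 350 lower, and the group next to the dimmest 326 higher and 40 lower. KO and WT arrays of buds did not overlap for 1688 probe sets (7.42%), and those of open flowers for 1958 (8.61%). They did so at both stages in the same direction for 182 (0.8%), 129 higher (0.567%) and 53 lower (0.233%) in KO. All 6 same-numbered pairs went one way for 1381 (6.07%).

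Apart from AT3G52870, the genes with the smallest p among those higher in KO by value had pooled log2 differences of 0.38 to 0.95. EXO (AT4G08950), an extracellular protein of cell expansion induced by brassinosteroids, read 2057, 3567 and 2390 in KO open flowers, against 1308, 1453 and 1442 in WT open flowers. In buds it read 3422, 6320 and 2914 in KO, against 2835, 3727 and 2260 in WT. The groups were apart in open flowers and overlapped in buds, where replicate 2 was highest in each genotype. The pooled difference was 0.68 ± 0.13 (SE; adjusted p = 0.334), with 0.46 in buds and 0.89 in open flowers.

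AT2G39850, of the subtilase family of serine proteases, read 438, 452 and 448 in KO buds, against 344, 340 and 298 in WT buds, and 602, 656 and 558 in KO open flowers, against 435, 436 and 495 in WT open flowers. No KO array overlapped with a WT array of its stage, and the pooled difference was 0.41 ± 0.08 (adjusted p = 0.334). AT4G02540 (0.48 ± 0.07, adjusted p = 0.128) and AT3G24100 (0.47 ± 0.08, adjusted p = 0.192) had lower adjusted p, and for AT3G24100 the OE arrays differed from WT by 0.78 (adjusted p = 0.0884). ATRER1C1 (AT2G23310), whose yeast counterpart returns membrane proteins to the endoplasmic reticulum, had 0.47, CP5 (AT1G64720) 0.39 and AT5G19860 0.38.

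Genes of this kind that were dim on all 12 arrays are AT3G11180 and AT5G40920. AT3G11180, a 2-oxoglutarate-dependent oxygenase that hydroxylates jasmonate and so inactivates it, read 29.9, 32.5 and 31.0 in KO buds, against 5.79, 1.96 and 5.84 in WT buds. It read 34.2, 32.2 and 46.5 in KO open flowers, against 17.1, 25.8 and 20.3 in WT open flowers. No KO value overlapped with a WT value of its stage, and the pooled difference was 0.87 ± 0.18 (adjusted p = 0.334). AT5G40920 had 0.72, and AT3G19470, dim on all bud arrays, 0.71.

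Among genes lower in KO by value, CES (AT1G25330), a bHLH transcription factor of brassinosteroid synthesis and of the reproductive tract of the gynoecium, had the clearer gap in open flowers. It read 860, 874 and 755 in KO open flowers, against 1409, 1348 and 1120 in WT open flowers, and 586, 516 and 701 in KO buds, against 812, 665 and 731 in WT buds. The pooled difference was -0.46 ± 0.10 (adjusted p = 0.334), with -0.29 in buds and -0.63 in open flowers. OE arrays read 2226, 2476 and 2407 in open flowers, above both KO and WT, and 594, 656 and 733 in buds, with a pooled OE minus WT of 0.36 (adjusted p = 0.641).

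AT1G04040, of the HAD family of acid phosphatases, read 107, 128 and 91.5 in KO open flowers, against 224, 210 and 262 in WT open flowers. In buds it read 289, 181 and 242 in KO, against 313, 290 and 428 in WT. The groups did not overlap at either stage, the KO open-flower values were all dim, the pooled difference was -0.75 ± 0.15 (adjusted p = 0.334), and OE minus WT was 0.25 (adjusted p = 0.900). Smaller differences were found for AT3G45310, a papain-type cysteine protease (-0.46), AT1G78020, an FLZ zinc-finger protein (-0.42), BGLU25 (AT3G03640), of the beta-glucosidase family (-0.41), FOLB2 (AT5G62980), a dihydroneopterin aldolase of folate synthesis (-0.36), AT2G24020 (-0.35), AT1G05720 (-0.30) and AT3G02700 (-0.29). Also lower by value but dim on all 12 arrays were AT1G40230 (-0.64) and 1 probe set for the mitochondrial gene nad1, a subunit of respiratory complex I (-0.99). The nad1 transcript carries 7 single-gene probe sets, and these disagree: another of them gave 0.47 (unadjusted p = 0.0311) and the other 5 lay between -0.13 and 0.36 (unadjusted p of 0.133 or more).

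Of the 25 probe sets chosen as calls or by the smallest p, 24 carry a single gene, 12 positive and 12 negative, and 19 had an adjusted p of 0.334 to 0.342. The KO and WT arrays of 15 did not overlap at either stage, 8 higher and 7 lower in KO, and all 25 went one way in all 6 pairs. Both counts follow in part from the choice of small p, and over all probe sets the shares are the 0.8% and 6.07% given above.

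Genes of the processes that LEJ1 is known for, and of other processes and cell types of the flower, were followed in 18 lists of 383 genes. The annotation used names a single-gene probe set for 64 of them, and the others could not be followed by name here. With the stages pooled 0 of the 64 were called by limma. An unadjusted p under 0.05 was found for 9 (14.1%, with 5 higher and 4 lower), against 9.61% of all probe sets. Among probe sets above the 40th percentile of their array on at least 3 arrays the share was 10.9%. AT3G52870 was the 1 called in open flowers. The lists were chosen with earlier results of these data known, so neither that call nor the share of 14.1% is a result of the lists. Over all 13286 genes with a single-gene probe set the same counts were 766 higher and 365 lower, with a median difference of 0.039. No list had a member called in buds.

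The thioredoxin system carries electrons from ferredoxin or NADPH to chloroplast and mitochondrial enzymes. It had 12 measured genes of 35 listed, with 5 positive and 7 negative differences from -0.20 to 0.13 and a median of -0.06. With arrays centred on their medians 3 were positive and 9 negative (median -0.13). With quantile normalization 5 were positive and 7 negative (median -0.04). FTRB (AT2G04700), the catalytic subunit of ferredoxin-thioredoxin reductase, which passes electrons to the chloroplast thioredoxins, read 1973, 2677 and 2904 in KO buds, against 2411, 3148 and 2921 in WT buds. It read 1909, 2797 and 2164 in KO open flowers, against 2530, 2830 and 2553 in WT open flowers. The KO value was the lower one in all 6 same-numbered pairs while the groups overlapped at both stages, and the difference was -0.20 ± 0.08 (unadjusted p = 0.022, adjusted p = 0.458).

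The chloroplast peroxiredoxin 2CPA (AT3G11630), which removes peroxides with thioredoxin as its donor, had -0.16 (unadjusted p = 0.0442), with the KO value lower in 5 of 6 pairs. NTRC, the NADPH-dependent thioredoxin reductase of the chloroplast, had 0.13. Thioredoxins themselves lay between -0.11 (TRXM2) and 0.13 (TRXY1), and every 95% interval in the list was between -0.36 and 0.41.

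Jasmonate, the hormone of stamen maturation and anther opening, had 3 measured synthesis genes of 18 listed and 5 response genes of 24. OPCL1, which activates a jasmonate precursor in the peroxisome, had 0.26 (unadjusted p = 0.0545), JMT, the jasmonate methyltransferase, 0.05, and AIM1, of peroxisomal beta-oxidation, -0.01. The response genes had values of 0.02 to 0.21, with the highest for the defensin gene PDF1.2A and an unadjusted p of 0.184 or more. PDF1.2A and PDF1.2B, the lowest at 0.02, were dim on every KO and WT array, so their values say little. Median centring turned the sign of both medians, with 0.05 as deposited and -0.02 centred for synthesis, and 0.06 as deposited and -0.02 centred for response. THI2.1, a thionin gene of the flower, was bright and close to level, at 21076, 20695 and 18418 in KO open flowers, against 19040, 19536 and 19126 in WT open flowers.

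For ethylene only EIN3, its main transcription factor, was measured, at -0.03. For the endothecium and anther dehiscence only ADPG1, a polygalacturonase of cell separation, was measured, at -0.12, and for lignin synthesis HCT at -0.11 and CCR2 at 0.04. These 4 had an unadjusted p of 0.308 or more. CCR2 was dim on every KO and WT array, so its value says little. Of the genes that make or remove hydrogen peroxide, 4 of 25 were measured. SAPX and TAPX, ascorbate peroxidases of the chloroplast, had -0.09 and -0.01, and RBOHE, an NADPH oxidase of the anther, 0.39.

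ZAT10 (AT1G27730), a zinc-finger repressor that responds to oxidative and other stress, stood highest in that list. It read 120, 237 and 114 in KO buds, against 96.9, 41.3 and 102 in WT buds, and 167, 366 and 264 in KO open flowers, against 128, 143 and 204 in WT open flowers. The KO value was higher in all 6 pairs, most in the pairs of replicate 2, and the open-flower groups overlapped. The difference was 0.75 ± 0.25 (unadjusted p = 0.00982, adjusted p = 0.408). WRKY53, a transcription factor of defence and leaf senescence, read 132, 137 and 97.7 in KO buds, against 63.8, 59.4 and 71.8 in WT buds, and 203, 295 and 166 in KO open flowers, against 197, 228 and 185 in WT open flowers. It was apart in buds and overlapped in open flowers, with a pooled difference of 0.42 ± 0.17 (unadjusted p = 0.0268, adjusted p = 0.465).

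All 3 measured genes of cold, drought and abscisic acid had negative values as deposited and after median centring. With quantile normalization COR47 turned positive. COR15A (AT2G42540), a cold-induced protein that protects chloroplast membranes, read 2045, 4159 and 2063 in KO open flowers, against 3880, 4488 and 3364 in WT open flowers, and 6244, 9275 and 13058 in KO buds, against 9834, 14802 and 11734 in WT buds. The groups overlapped at both stages, and the difference was -0.48 ± 0.16 (unadjusted p = 0.0102, adjusted p = 0.411). Its neighbour and near copy COR15B had -0.28 ± 0.08 (unadjusted p = 0.00489, adjusted p = 0.371), and the pair may share signal. COR47, a dehydrin, had -0.03.

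Among the 5 calmodulin and IQ-motif genes, IQM4 (AT2G26190), of the same family as AT3G52870, had 0.21 (unadjusted p = 0.0677), CML38 0.32, CML42 0.03 and CML37 -0.19. CML37 was dim on every KO and WT array, and CML38 on all but 1 of them. The 95% interval of IQM4, -0.02 to 0.45, lay below that of AT3G52870, 1.21 to 2.28. Photosynthesis genes were near level: SBPASE and RCA, of carbon fixation, had -0.11 each, PRK 0.03 and the antenna gene LHCB4.1 0.07. GI of the circadian clock had 0.12, WRKY6 of senescence 0.07, and the heat shock genes HSP22 and AT5G37670 had 0.17 and -0.10, with an unadjusted p of 0.0903 or more in these 4. Both heat shock genes were dim on every KO and WT array, so their values say little. The medians for photosynthesis, heat shock and senescence changed sign with the scaling of the arrays.

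**Figure D5:**
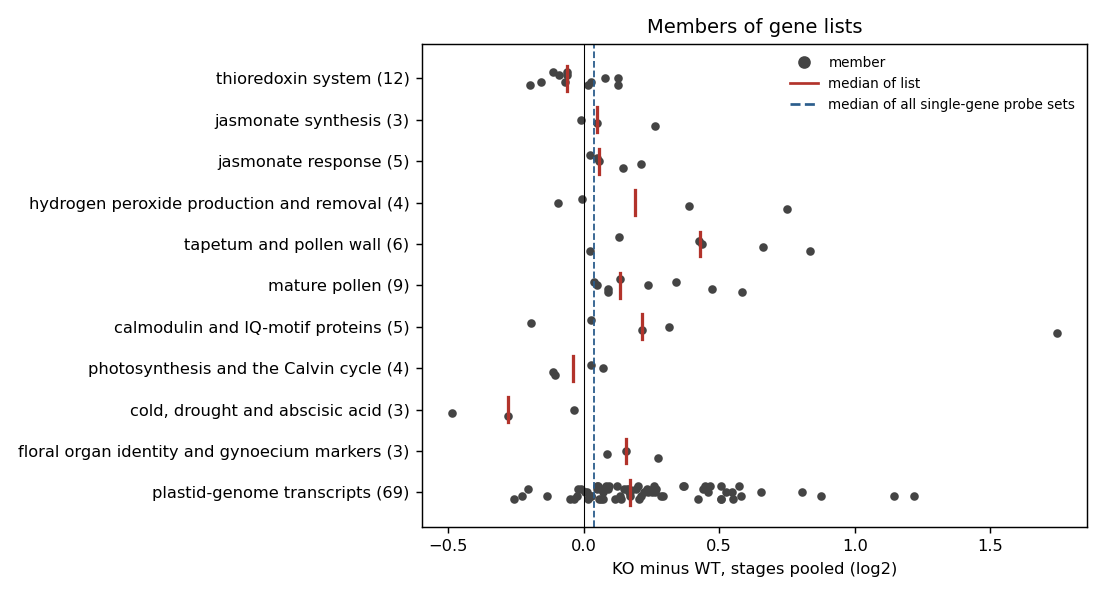
KO minus WT with the stages pooled (log2, horizontal axis) for the measured members of 10 gene lists and for the plastid-genome probe sets, 1 point per member, with the number of members in brackets, the list median in red and the median of all single-gene probe sets as a dashed blue line. The 12 thioredoxin genes lie within -0.20 and 0.13, the 6 tapetum genes are all above 0 on the deposited scale, where SPL (0.02) turned negative after centring or quantile normalization, and AT3G52870 stands alone at 1.75.

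Markers of the cell types in a flower were read in the same way. In bulk flowers, fewer cells of a type and less RNA per cell cannot be told apart. Of 18 floral organ and gynoecium markers 3 were measured: SPT, a bHLH factor of the carpel margin, had 0.09, INO, of the outer ovule integument, 0.27, and UFO 0.16 with all its arrays dim. SPT was well measured in every group, at 334, 391 and 417 in KO buds and 340, 364 and 413 in WT buds, and at 221, 309 and 292 in KO open flowers and 224, 247 and 264 in WT open flowers.

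The tapetum, the inner anther layer that feeds the pollen and then breaks down, had 6 measured genes of 28 listed. In buds their median difference was -0.07, and in open flowers 0.94, with all 6 positive when the stages were pooled (median 0.43). With arrays centred on their medians 5 were positive (median 0.36) and with quantile normalization 5 (median 0.39), SPL being the negative one in both. Over all 13286 single genes, 7889 were positive as deposited. In open flowers A9, AMS and SPL were below the level used for the filter on dim probe sets on all 6 open-flower arrays. The lipid transfer protein gene A9 (AT5G07230) read 4350, 3683 and 4619 in KO buds, against 4609, 4273 and 4100 in WT buds. In open flowers it read 121, 10.1 and 95.8 in KO, against 14.9, 3.73 and 2.60 in WT. The open-flower KO values of replicates 1 and 3 were above all WT values and that of replicate 2 was not. The pooled difference was 0.83 ± 0.36 (unadjusted p = 0.0391, adjusted p = 0.50), with -0.04 in buds and 1.71 in open flowers (adjusted p = 0.604; genotype by stage, adjusted p = 1.00). On the first principal component, which separated buds from open flowers, the KO open-flower arrays scored -42.5, -60.0 and -52.8 in replicates 1 to 3, against -54.2, -57.1 and -58.7 for WT open flowers. KO buds scored 54.4, 49.7 and 53.5, against 58.1, 51.3 and 58.5 for WT buds. KO open-flower replicate 1, with the highest A9 value, was nearest the buds and replicate 2, with the lowest, was farthest. A9 was itself among the probe sets that this component was computed from, so the orders are not independent of each other. The part of this in the result was not tested.

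Without the KO open-flower array of replicate 2, A9 was called in open flowers and in the genotype by stage test (adjusted p = 0.000447 and 0.0166), as was AT4G29980 (adjusted p = 0.003 and 0.0467), which with all arrays had 1.33 ± 0.39 in open flowers (adjusted p = 0.792; genotype by stage, adjusted p = 1.00). ATA27, a tapetal glucosidase gene, read 908, 41.6 and 178 in KO open flowers, against 258, 28.7 and 21.5 in WT open flowers. The tapetal regulator AMS read 100, 13.1 and 19.2 in KO open flowers, against 1.79, 12.5 and 14.6 in WT open flowers. In both genes replicate 1 was the highest KO array and replicate 2 the lowest, and the groups overlapped. SHT, which joins hydroxycinnamate to spermidine for the pollen wall, had 0.90 in open flowers, also with overlap. EMS1, the receptor kinase that sets tapetal fate, had 0.13 and SPL, a regulator of early sporogenous cells, 0.02.

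Genes listed as mature pollen markers, 9 of 31 measured, were all positive by value, from 0.04 to 0.58 with a median of 0.13. Of all 13286 single genes 7889 were positive. The listed genes did not share a course in WT. From buds to open flowers the mean fell from 2292 to 260 for SWEET8, from 2056 to 67.7 for SWEET5 and from 233 to 62.4 for AGL104. It rose from 831 to 2043 for TUA1 and from 68.2 to 427 for ANX2. AGL66 and AGL30 also fell, and AGL65 and ANX1 rose. After centring 7 were positive (median 0.06) and after quantile normalization 6 (median 0.14), with AGL65 and ANX1 negative in both. AGL30, a MADS-box factor of pollen, had 0.58 ± 0.24 (unadjusted p = 0.0325, adjusted p = 0.484). AGL30 read 107, 101 and 132 in KO open flowers, against 19.7, 58.9 and 138 in WT open flowers. Its groups overlapped at both stages. ANX2, a receptor kinase that keeps the growing pollen tube intact, had 0.47 ± 0.22 (unadjusted p = 0.0534). ANX2 read 715, 471 and 672 in KO open flowers, against 402, 446 and 432 in WT open flowers, without overlap. It read 130, 134 and 44.8 in KO buds, against 44.7, 102 and 58.0 in WT buds, with overlap. Its close homologue ANX1 had 0.04, the sugar transporters SWEET5 and SWEET8 had 0.34 and 0.09, and the pollen tubulin TUA1 0.13.

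Transcripts of the plastid genome were looked at after the unadjusted shares by chromosome were seen. These shares were 7.81% to 9.73% on the 5 nuclear chromosomes and 18.8% (13 of 69 probe sets) on the plastid genome, of which 12 were higher in KO and petA was lower, and none was called. The median difference was 0.17, with 60 positive and 9 negative. The photosystem II genes psbK and psbI had the largest values, 1.22 ± 0.50 and 1.14 ± 0.41 (unadjusted p = 0.0305 and 0.0166). In buds psbK averaged 3376 ± 4312 in KO and 453 ± 94.3 in WT (SD, n = 3 each). There psbI averaged 2512 ± 2727 in KO and 496 ± 75.8 in WT. For both genes the groups overlapped at both stages, and KO was higher in 4 (psbK) and 5 (psbI) of the 6 pairs. The ribosomal protein gene rps19 had the smallest p (0.42 ± 0.13, unadjusted p = 0.00809, adjusted p = 0.396). The gene rpoC2, for a subunit of the plastid RNA polymerase, had 0.65, and rbcL, the large subunit of Rubisco, 0.25. The lower one, petA of the cytochrome b6f complex, had -0.20.

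The level of these probe sets varied between arrays of a group. Their median log2(intensity + 16) level was 11.08, 10.55 and 9.19 in KO buds, against 10.18, 9.17 and 10.02 in WT buds, and 10.75, 10.22 and 9.94 in KO open flowers, against 10.09, 10.55 and 9.87 in WT open flowers. The groups overlapped at both stages. By pair, the median difference was 0.72, 0.82 and -0.40 in buds and 0.54, -0.21 and 0.03 in open flowers, so it was not of one sign within either stage. Without the 4 arrays of replicate 1 the median difference was 0.05. Leaving out 1 array moved it to 0.06 (WT buds replicate 2), 0.08 (KO buds replicate 1), 0.29 (WT buds replicate 3), 0.30 (KO buds replicate 3) or 0.33 (WT open flowers replicate 2). Median centring gave 0.10, with 47 positive and 22 negative, and without the replicate block an unadjusted p under 0.05 was left for 3 probe sets, all higher in KO. In OE the median difference from WT was -0.27, with 8 of 69 positive. The probe sets share 1 genome and the same RNA sample on each array, so they are not independent of each other.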

How the data were processed

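Total RNA of 18 flower samples was hybridised to ATH1 arrays, and 12 arrays were compared here. The authors deposited linear intensity values, 1 for each probe set on each array. Software and scaling steps were not given in the sources used here, but trimmed array means of the deposited intensity lay between 499.82 and 499.85. From these, log2(intensity + 16) was computed and fitted with limma (version 3.58.1; statmod 1.5.0; R 4.3.3), with an intensity trend, Benjamini-Hochberg adjustment over all 22746 probe sets and calls at an adjusted p under 0.05. The pooled model (stage, replicate number, genotype) had 7 residual degrees of freedom, and the model with 4 group means and the replicate block had 6. Every adjusted p is from limma unless a permutation test is named. Differences on this scale understate the change of dim probe sets. Plots used matplotlib 3.10.9 (Python 3.11.15). The fitting code was tested on simulated data.

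Sample titles gave groups and replicate numbers and call the samples biological replicates. No pair of arrays held identical values (0 pairs). Nothing in the labels says that a number marks a shared batch. Deviations of same-numbered arrays from their group means correlated across probe sets, which are not independent, at 0.128 to 0.606, against -0.491 to 0.362 for different numbers. Same-numbered values were highest for number 1 (0.415 to 0.606), with 0.199 to 0.401 for number 2 and 0.128 to 0.287 for number 3. Arrays of number 2 correlated with those of number 3 at 0.0594 to 0.362. The numbers thus set replicate 1 apart, and a pairing within numbers 2 and 3 was not shown. Deviations within a group of 3 sum to 0, which forces part of the negative values. The block that the model held was kept.

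Gene names come from the platform annotation through Entrez numbers: 13513 probe sets name 1 gene, 503 several and 8730 are unnamed here, and 13436 matched a locus tag. No sequence is shown and no coordinates are given, since no genome was used here. All calls and the 12 positive and 12 negative single-gene probe sets with the smallest p came to 25 probe sets; up to 3 members per list with the smallest p are named besides; other genes named were chosen after their values were seen. The comparison, the gene lists and the tests were chosen with earlier results of these data known. Tried as alternatives were no or a random replicate block, pseudocounts of 1 and 64, a filter on dim probe sets, median centring, quantile normalization, all 18 arrays, no trend, robust variance, either control ratio as a covariate, and leaving out replicate 1 or each array in turn, 25 settings in all. For arrays, their number limits the precision.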

Additional observations from a re-analysis of the deposited data

How the results depend on the processing

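The fall of 253282_at was called with the stages pooled, in buds and in open flowers in 24 of 25 settings (pooled difference -3.32 to -2.96), and so was AT3G52870 in open flowers. The exception for both was the second control ratio as a covariate, a setting added after seeing the data. It left 0 calls pooled, 0 in buds and 0 in open flowers. That ratio with stage and replicate number accounts for 97.4% of the variance of the genotype term. The median standard error was thus 0.830 in place of 0.133, and 253282_at had -2.76 ± 0.91 (adjusted p = 1.00). In that fit the pooled differences of AT3G52870 (-1.46), AT3G24100 (-0.032), EXO (-1.36), ATRER1C1 (-0.35), BGLU25 (0.16), AT1G04040 (0.52), AT1G78020 (0.45), CES (1.12) and AT1G40230 (0.52) changed sign, and so did, among others, the medians for tapetum, pollen, hydrogen peroxide and cold genes. Under the other 24 settings none of the 25 probe sets chosen as calls or by the smallest p did. The pooled count was 2 without the replicate block, 3 with it as a random effect, 2 with a pseudocount of 64, 4 with the filter on dim probe sets, 2 with centred arrays, 3 with all 18 arrays, 4 with robust variance and 2 without replicate 1. What was gained was AT1G43590 (8 settings), AT3G52870 (4), AT4G02200 (2) and 249741_at (1, unnamed here). In open flowers the count was 4 with the random block, 6 with all 18 arrays and 5 without the trend. Without the replicate block, 1352 probe sets had an unadjusted p under 0.05 pooled, 787 in buds, 822 in open flowers and 442 in the genotype by stage test, and the counts of calls there were 2, 1, 2 and 0. Leaving out each array in turn gave 1 to 2 calls pooled, 1 in buds, 2 to 4 in open flowers and 0 to 2 in the genotype by stage test; the higher values came without the KO open-flower array of replicate 2. The cause of the other moves was not tested. Small differences are limited by 3 arrays a group and by dim probe sets, of which 7918 lay below the level used for the filter.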

Other observations

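In open flowers, 4 genes of low intensity there had higher means in KO than in WT without reaching the threshold. They did reach it in some alternative settings, and they were chosen after their values were seen. Of these, AT5G13380 was not dim on all arrays, as it passed the filter on dim probe sets. AT5G13380 averaged 73.7 ± 40.1 in KO open flowers and 14.0 ± 11.8 in WT open flowers (SD, n = 3 each; log2 difference 1.56 ± 0.20, SE; limma, adjusted p = 0.0651). AT2G05160 averaged 48.7 ± 14.4 in KO open flowers and 7.96 ± 5.26 in WT open flowers (1.43 ± 0.20, adjusted p = 0.097). AT3G42780 averaged 46.0 ± 5.51 in KO open flowers and 4.18 ± 1.18 in WT open flowers (1.62 ± 0.24, adjusted p = 0.131), and AT2G03540 averaged 34.0 ± 8.77 in KO open flowers and 5.41 ± 3.62 in WT open flowers (1.22 ± 0.20, adjusted p = 0.260). In buds the differences of these 4 genes were 0.01, 0.24, 0.23 and -0.11, and with the stages pooled none passed (adjusted p of 0.349 or more).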
